A study of Mus musculus with 4 samples.

Results

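The genes of DNA replication and of entry into S phase were followed in ATDC5 cells, a mouse line used as a model of cartilage formation, after knockdown of Chadl. Members were named gene by gene, and every array probe set whose only annotated gene symbol was a member was taken. This gave 63 of the 45037 tested probe sets and 37 of the 38 listed genes, out of 17097 genes on the array with a probe set of their own. Chaf1a was not analysed here. Both groups were ATDC5 cells transfected with 30 nM of an RNA duplex and given differentiation medium from 16 h on, and RNA was taken after 5 days. The knockdown group (2 arrays, knockdown 1 and knockdown 2) received the duplex against Chadl, and the control group (2 arrays, control 1 and control 2) received a scrambled duplex. Per the labels, 1 duplex sequence gave effective knockdown, so the knockdown group rests on 1 reagent in 1 cell line. The submitters name the arrays biological replicates but do not state that each came from its own culture. A p-value here therefore sets the group difference only against the spread within the groups of these 4 samples, estimated in part from all genes. That spread may be technical.

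Replication starts at origins, where the origin recognition complex, Cdc6 and Cdt1 load the MCM helicase in G1. Cyclin E with its kinase, and the transcription factor E2F released from the retinoblastoma protein, then drive S phase, when Cdc45 and GINS turn the helicase on and polymerases copy both strands on the sliding clamp PCNA. Most of these genes are known E2F targets whose transcripts peak around the G1 to S boundary, so in a bulk culture their level follows how many cells are cycling. Chondrogenic lines are known to slow their division as they differentiate. In bulk RNA, fewer cycling cells and less RNA per cell cannot be told apart.

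Promoter sequence is shown because these genes are grouped in textbooks by E2F control. RefSeq windows of mouse assembly GRCm38.p6, from 250 bases before to 50 bases after the gene start, were held for 31 of the 37 measured members, in 36 windows. The E2F words searched were TTTCCCGC, TTTCGCGC, TTTGCCGC and TTTGGCGC on either strand. The 4 printed windows are those with the lowest knockdown 1 signal relative to control among members with such a word. They are Cdc6 at chr11:98907901-98908200 on the plus strand, Pola1 at chrX:93632106-93632405 on the minus strand, Mcm7 at chr5:138171834-138172133 on the minus strand and Uhrf1 at chr17:56304063-56304362 on the plus strand. Each is written 5′ to 3′ in the direction of its gene, with the E2F word in capitals.
Cdc6: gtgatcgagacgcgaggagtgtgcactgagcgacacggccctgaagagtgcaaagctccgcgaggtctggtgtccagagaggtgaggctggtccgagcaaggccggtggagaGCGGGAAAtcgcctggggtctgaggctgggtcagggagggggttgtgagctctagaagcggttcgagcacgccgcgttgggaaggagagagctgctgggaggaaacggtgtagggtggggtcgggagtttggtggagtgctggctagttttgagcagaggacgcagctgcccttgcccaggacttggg
Pola1: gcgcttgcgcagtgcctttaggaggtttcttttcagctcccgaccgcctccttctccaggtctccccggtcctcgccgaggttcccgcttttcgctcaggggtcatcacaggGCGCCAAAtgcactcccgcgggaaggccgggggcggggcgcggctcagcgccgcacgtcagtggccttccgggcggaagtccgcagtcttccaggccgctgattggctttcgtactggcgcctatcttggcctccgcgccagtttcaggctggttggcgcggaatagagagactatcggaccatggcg
Mcm7: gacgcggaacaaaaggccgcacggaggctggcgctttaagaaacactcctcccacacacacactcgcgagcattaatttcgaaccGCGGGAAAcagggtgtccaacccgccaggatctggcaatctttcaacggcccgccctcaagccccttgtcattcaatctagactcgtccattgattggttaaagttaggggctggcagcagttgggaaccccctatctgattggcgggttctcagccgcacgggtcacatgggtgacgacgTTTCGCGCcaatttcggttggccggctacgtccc
Uhrf1: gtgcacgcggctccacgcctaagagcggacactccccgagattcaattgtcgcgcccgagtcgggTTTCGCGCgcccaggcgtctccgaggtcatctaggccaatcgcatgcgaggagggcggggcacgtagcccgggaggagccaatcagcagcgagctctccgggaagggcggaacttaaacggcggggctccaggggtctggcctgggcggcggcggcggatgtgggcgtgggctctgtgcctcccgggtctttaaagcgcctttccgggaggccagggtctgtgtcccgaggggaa
The word lay 138 bases before the start in Cdc6 and in Pola1, 185 before it in Uhrf1, and in Mcm7 once 165 bases before and once from base 17 after it.

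An E2F word was found in 12 of the 36 member windows (33.3%), 1 window each for 12 genes, against 744 of 32851 windows of all genes (2.26%). Those genes were Orc1, Cdc6, Cdt1, Mcm3, Mcm5, Mcm6, Mcm7, Pola1, Pold1, Rfc3, Lig1 and Uhrf1, and in Mcm5 and Mcm6 a pair of the words overlapped. CCAAT, searched on both strands, was in 20 of 36 member windows (55.6%) and in 37.4% of all windows, and TTTGAA in 3 of 36 (8.33%) and in 17.9%. A match describes the letters only. Members with an E2F word had a median log2 signal of 0.0088 below the control mean in knockdown 1 and 0.05 above it in knockdown 2 (12 genes). Members with a window but no such word had medians of 0.09 below and 0.07 above (19 genes). The lowest member of all in knockdown 1, Tk1, was among those without the word.

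**Figure D1:**
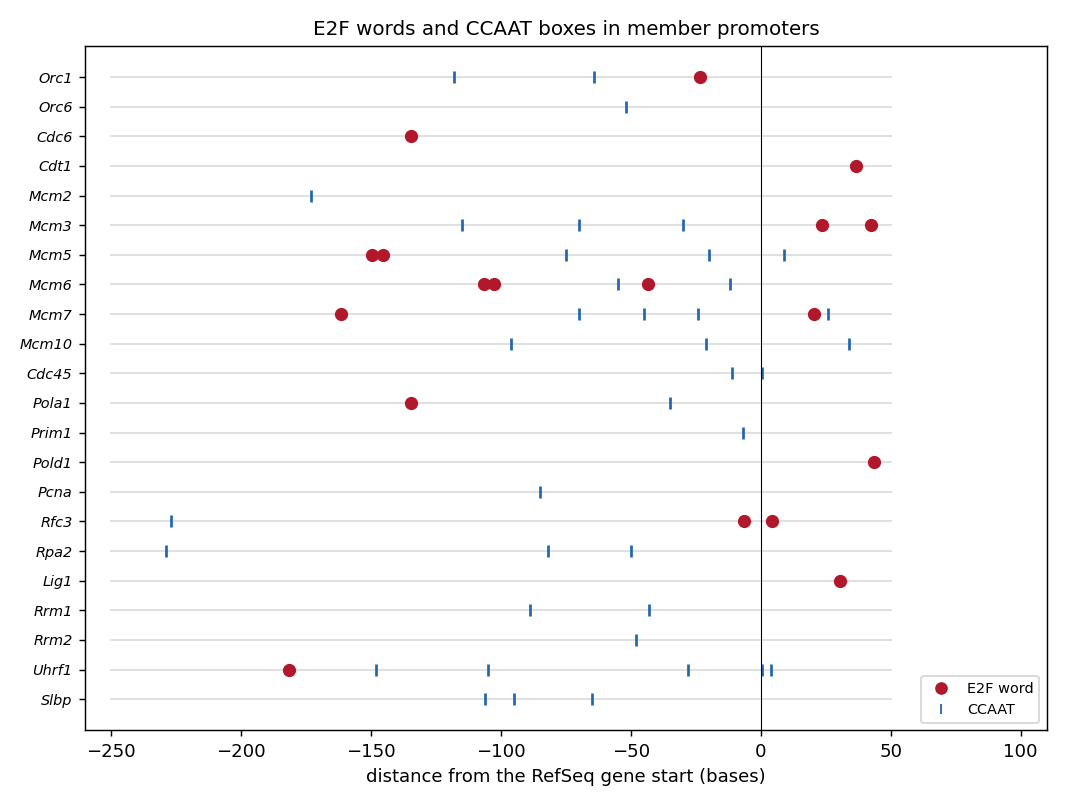
Positions of E2F words (red circles) and CCAAT (blue bars) in the promoter windows of members that hold at least 1 of them, by distance in bases from the RefSeq gene start at 0. Each grey line is the searched window, and genes with more than 1 RefSeq start have the matches of all their windows on 1 line. E2F words lie on both sides of the start, from Uhrf1 on the far left to Pold1 on the far right.

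No replication gene passed the test of knockdown against control, and several had the controls between the knockdown arrays. Signal is given as log2 signal per probe set, and each gene by its brightest probe set. The members were bright, with a median signal percentile of 83.1 among all genes, and 1 of the 37 lay below the median level. The shares of all genes given here and below were not matched for brightness. In limma with Benjamini-Hochberg adjustment over all genes, 0 of 37 members passed an adjusted p of 0.05, where 0% of all genes passed, and the lowest adjusted p was 0.615. At an unadjusted p of 0.05, 1 member was lower in knockdown and 0 were higher, beside 2.52% and 4.15% of all genes. The median difference, knockdown minus control, was -0.03 over the members and 0.01 over all genes. Both knockdown arrays lay below both controls for 8 members, where 17.1% of all genes did so, and above both for 8, where 21.2% did.

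The arrays taken singly differed in direction. Knockdown 1 lay below both controls for 27 of 37 members (73.0%), where 39.4% of all genes did so. Knockdown 2 lay above both controls for 21 of 37 (56.8%), where 41.7% of all genes did so, and below both for 8, where 31.8% did. The median member stood 0.08 below the control mean in knockdown 1 and 0.04 above it in knockdown 2, and the medians of all genes were -0.0031 and 0.01. Signal was lower in knockdown 1 than in knockdown 2 for 31 members, where 53.2% of all genes showed that order. For 12 members the controls lay between the knockdown arrays with knockdown 1 lowest, where 13.2% of all genes did so, and for 0 with knockdown 1 highest, where 9.52% did. The median gap between the arrays was 0.10 for the knockdown pair and 0.04 for the control pair over the members, and 0.10 and 0.06 over all genes. With 1 array on each side the gap between the knockdown arrays has no test.

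**Figure D2:**
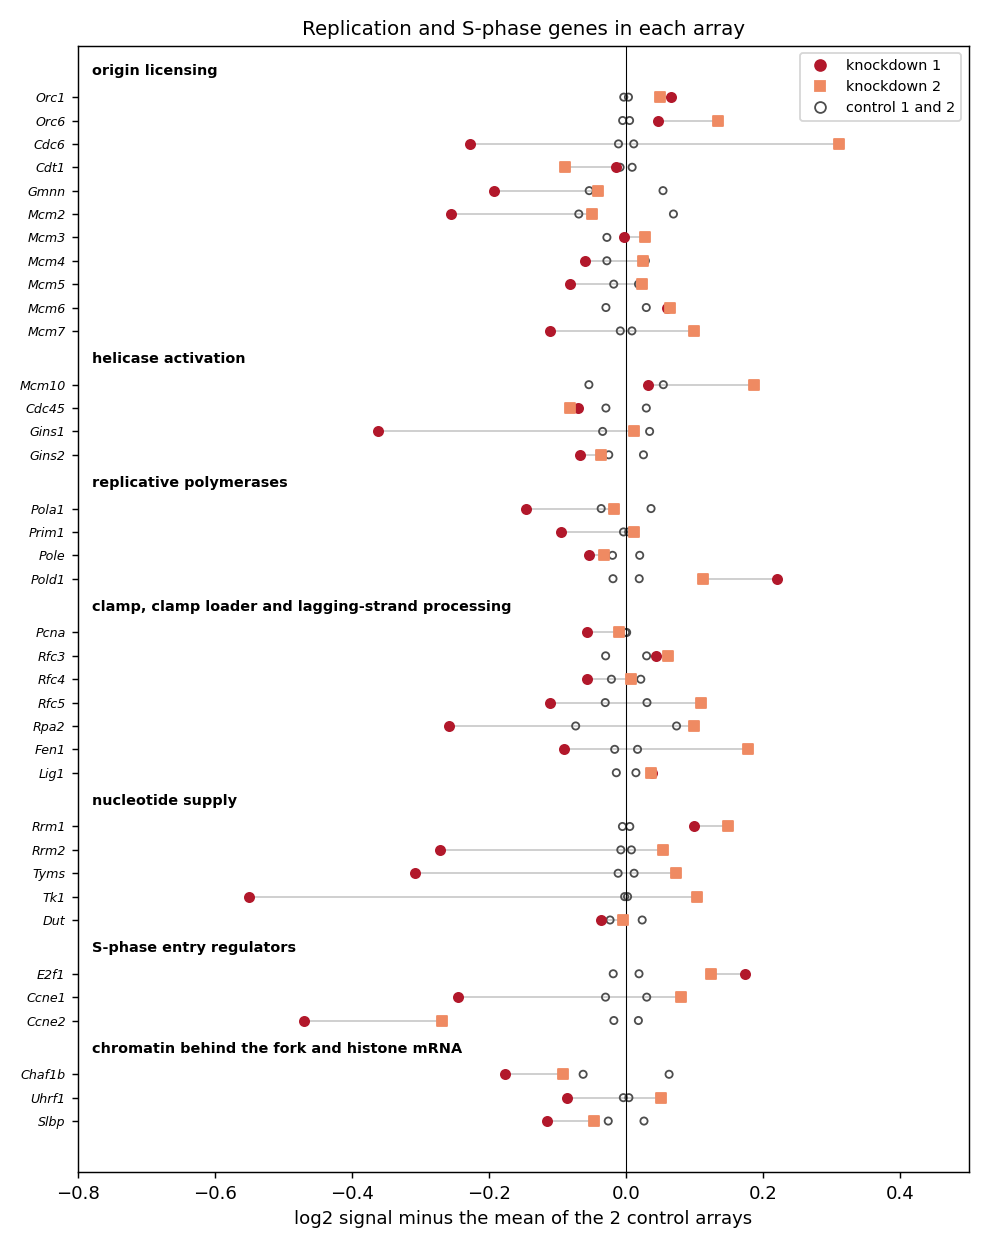
Log2 signal of each member gene minus the mean of the control arrays, by role; filled red circles are knockdown 1, orange squares knockdown 2 and open circles the controls. Knockdown 1 lies left of both controls for 27 of 37 genes and knockdown 2 right of both for 21, and Ccne2 is the gene with both knockdown arrays far to the left.

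To give each knockdown array its own test, limma was refitted without the other, with the lone array assumed to vary like the controls. That assumption did not hold over all genes. The standard deviation of the gap was 0.20 for the knockdown pair and 0.10 for the control pair. The error in these fits came from the controls alone, so adjusted p-values for 1 knockdown array, here and below, are likely too small. Against the controls, 12 members passed as lower and 0 as higher in knockdown 1, where 6.18% and 8.94% of all genes passed (15.1% in all). In knockdown 2 there were 1 lower and 1 higher, where 1.37% and 1.91% of all genes passed (3.28% in all). The 12 were Cdc6, Gmnn, Mcm2, Gins1, Pcna, Rpa2, Rrm2, Tyms, Tk1, Ccne1, Ccne2 and Slbp, and the members in knockdown 2 were Ccne2, lower, and Cdc6, higher. These tests compare 1 array with 2, and say nothing of knockdown samples other than that array. The controls lay closer together for the bright members than for all genes (median gap 0.04 and 0.06). The shares of all genes are therefore no matched background for these calls.

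Among regulators of S-phase entry, Ccne2 was low in both knockdown arrays. Ccne2, which encodes cyclin E2, partner of the kinase Cdk2 at the start of S phase, had log2 signals of 7.94 and 8.14 in knockdown 1 and 2, against 8.39 and 8.43 in control 1 and 2. The groups did not overlap, and knockdown 1 was the lowest array. The difference of -0.37 (SE 0.08, interval -0.56 to -0.18 at 95% confidence) amounted to 1.29-fold, with an unadjusted p of 0.00307, and it did not pass over all genes (adjusted p = 0.615, limma). It was the 1 member that passed in each knockdown array alone and in the same direction, at -0.47 in knockdown 1 (adjusted p = 2.68e-06, limma) and -0.27 in knockdown 2 (adjusted p = 0.00313). It was read by 1 probe set.

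Ccne1, the other cyclin E gene, did not share that pattern. Its signals were 6.54 and 6.86 in knockdown 1 and 2, against 6.75 and 6.81 in the controls, so knockdown 1 lay below the controls and knockdown 2 above them. It passed in knockdown 1 alone (-0.25, adjusted p = 0.0256, limma). E2f1, the activator E2F that cyclin E activity helps to free, had 6.34 and 6.29 in the knockdown arrays and 6.14 and 6.18 in the controls by its brighter probe set. Both knockdown arrays were the higher ones there, and the difference of 0.15 (SE 0.08) did not pass. The other E2f1 probe set read 5.84 and 6.17 against 6.18 and 6.06, with knockdown 1 lowest, so the direction for E2f1 depended on the probe set.

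The widest gap among the members lay in the enzymes that supply nucleotides. Tk1, the cytosolic thymidine kinase that salvages thymidine in S phase, had signals of 7.37 and 8.02 in knockdown 1 and 2, against 7.92 and 7.92 in the controls. Knockdown 1 alone was low, 1.46-fold below the control mean, and knockdown 2 was 1.07-fold above it. The arrays of the knockdown pair were 0.65 apart and those of the control pair 0.0043. Tk1 passed in knockdown 1 alone (-0.55, interval -0.66 to -0.44, adjusted p = 1.95e-06, limma) and not in knockdown 2 alone (0.10, adjusted p = 0.335), and over both arrays the difference was -0.22 (SE 0.19, adjusted p = 0.839).

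Tyms, the thymidylate synthase that makes dTMP, followed the same order with 8.56 and 8.94 in the knockdown arrays and 8.86 and 8.88 in the controls. Its value in knockdown 1 was -0.31 (adjusted p = 4.55e-05, limma) and in knockdown 2 0.07 (adjusted p = 0.403). The 4 other Tyms probe sets were dim and 2 of the 5 in all had a knockdown minus control value of the opposite sign. Rrm2, the cell-cycle-regulated small subunit of ribonucleotide reductase, read 8.001 and 8.33 against 8.28 and 8.27. A second Rrm2 probe set read 6.11 and 6.42 against 6.51 and 6.45, again with knockdown 1 lowest. Rrm2 passed in knockdown 1 alone (-0.27, adjusted p = 0.000691).

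By their brightest probe sets, the remaining nucleotide enzymes did not part in this way. Rrm1, the large reductase subunit, read 8.77 and 8.82 in knockdown 1 and 2, against 8.66 and 8.67 in the controls. Both knockdown arrays were higher, by 0.12 (SE 0.05, adjusted p = 0.748), opposite to its partner Rrm2 in knockdown 1. A second Rrm1 probe set was 0.03 above the control mean in knockdown 1, between the controls, and 0.27 above it in knockdown 2. Its knockdown 1 minus knockdown 2 difference was -0.24, the same order of the knockdown arrays as in Rrm2. Dut, the dUTPase that keeps uracil out of DNA, read 9.05 and 9.08 against 9.11 and 9.06, and the groups overlapped. Over the 5 enzymes the median was 0.27 below control in knockdown 1 and 0.07 above it in knockdown 2.

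**Figure D3:**
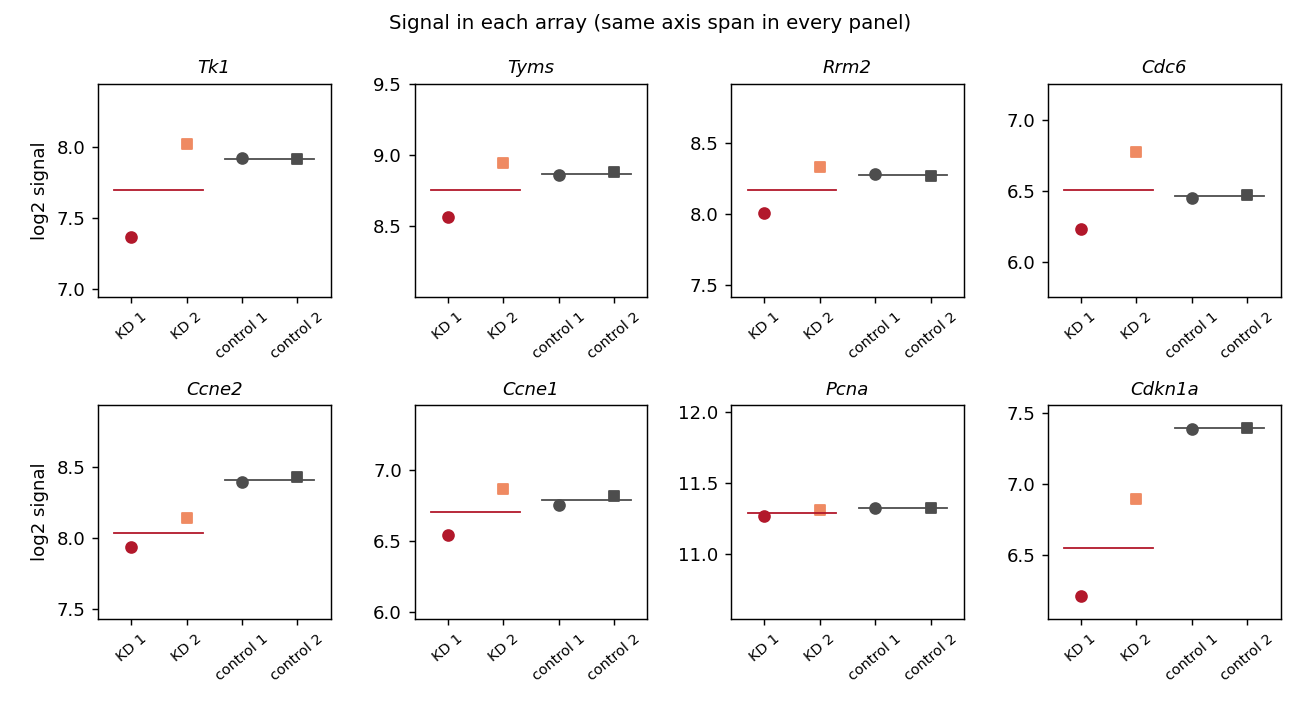
Log2 signal in each array for chosen members with wide gaps or low values, and for Pcna and Cdkn1a. Pcna is the brightest member and Cdkn1a, a kinase inhibitor, is no member. Gins1 and Rpa2 are not shown, although their gaps (0.37 and 0.36) were wider than those of Rrm2 and Ccne1 (0.33 and 0.33). KD is knockdown, each point is 1 array, lines are group means, and all panels span the same range. In Tk1, Tyms, Rrm2, Cdc6 and Ccne1 the controls lie between the knockdown arrays. In Ccne2, Cdkn1a and Pcna both knockdown arrays lie below the controls, in Pcna by only 0.06 and 0.01 from the control mean.

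Cdc6 had the second widest gap and was the 1 member to pass in opposite directions. Cdc6, the ATPase that brings the MCM helicase to origins, had signals of 6.24 and 6.78 in knockdown 1 and 2, against 6.45 and 6.48 in the controls. It was 0.23 below control in knockdown 1 (adjusted p = 0.0491, limma) and 0.31 above it in knockdown 2 (adjusted p = 0.0226), and the group difference was 0.04 (SE 0.17). Its promoter, printed above, holds 1 E2F word.

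The other 10 licensing genes had narrower gaps than Cdc6. Orc1 and Orc6, subunits of the origin recognition complex, were 0.06 and 0.09 higher in knockdown than in control, with both knockdown arrays above both controls, and neither passed. Cdt1, the MCM loading factor, read 10.00 and 9.92 in knockdown 1 and 2, against 10.00 and 10.02 in the controls, and here knockdown 2 was the lowest array. Gmnn, which encodes the Cdt1 inhibitor geminin, read 7.66 and 7.81 against 7.90 and 7.80, low in knockdown 1 only (-0.19, adjusted p = 0.0314 there, limma).

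The 6 MCM subunits, which form 1 hetero-hexamer, were not equally placed. Mcm2 read 8.18 and 8.39 in knockdown 1 and 2, against 8.51 and 8.37 in the controls, and passed in knockdown 1 alone (-0.26, adjusted p = 0.00379, limma). A second Mcm2 probe set of similar brightness read 8.05 and 8.10 against 8.04 and 7.98, with both knockdown arrays highest. Mcm7 read 8.60 and 8.81 against 8.70 and 8.72, a gap of 0.21 between the knockdown arrays, and a second Mcm7 probe set kept that order at 8.40 and 8.50 against 8.46 and 8.43. By their brightest probe sets, Mcm3, Mcm4, Mcm5 and Mcm6 had knockdown 1 minus knockdown 2 differences of -0.03, -0.09, -0.10 and -0.0042. Their group differences lay between -0.03 and 0.06. Dimmer second probe sets of Mcm3 and Mcm5 had group differences of -0.08 and -0.30, for Mcm3 of opposite sign to the brighter one. That of Mcm5 read 3.71 and 3.97 in knockdown 1 and 2, against 4.03 and 4.24. Over the 11 licensing genes the median was 0.06 below control in knockdown 1 and 0.03 above it in knockdown 2.

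Of the 4 genes for helicase activation, Gins1 had the widest gap. Gins1, a subunit of the GINS complex that joins Cdc45 on the MCM ring, had signals of 5.90 and 6.28 in knockdown 1 and 2, against 6.30 and 6.23 in the controls. Knockdown 1 alone was low (-0.36, adjusted p = 0.00503 there, limma). Gins2, of the same complex, read 6.95 and 6.98 against 6.99 and 7.04 and did not pass in either fit. A second Gins2 probe set read 5.81 and 5.94 against 6.04 and 6.02, with knockdown 1 lowest. Cdc45 read 6.58 and 6.57 against 6.68 and 6.62, with both knockdown arrays lower and close together. Mcm10, which binds the activated helicase, read 6.34 and 6.50 against 6.26 and 6.36, and its 2 dimmer probe sets differed from control in the opposite direction.

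None of the 4 genes for replicative polymerases and primase passed in any of these fits. Pola1 and Prim1, of the polymerase alpha and primase complex that starts each strand, were 0.15 and 0.09 below control in knockdown 1, and 0.02 below and 0.01 above in knockdown 2. A second Prim1 probe set read 7.94 and 8.08 in knockdown 1 and 2, against 8.21 and 8.12 in the controls. Both knockdown arrays were lowest there. Pole, catalytic subunit of the leading-strand polymerase, had both knockdown arrays lowest, with a group difference of -0.04. Pold1, catalytic subunit of polymerase delta on the lagging strand, went the other way, with 6.06 and 5.95 in knockdown 1 and 2, against 5.82 and 5.85 in the controls. Pold1 had the highest knockdown minus control value of all members, 0.17 (SE 0.08, adjusted p = 0.754, limma).

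At the clamp and on the lagging strand, Pcna and Rpa2 passed in knockdown 1 alone, and Rpa2 had the widest gap. Pcna, the sliding clamp, read 11.26 and 11.31 in knockdown 1 and 2, against 11.32 and 11.32 in the controls. The step of -0.06 in knockdown 1 alone passed (adjusted p = 0.0493, limma), a 1.04-fold lower signal. Rpa2, a subunit of the single-strand binding protein RPA, read 7.34 and 7.70 against 7.68 and 7.53, low in knockdown 1 (-0.26, adjusted p = 0.0119). Its second probe set gave 6.60 and 6.95 against 6.86 and 6.75, the same order.

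The clamp loader subunits Rfc3, Rfc4 and Rfc5 had group differences of 0.05, -0.03 and -0.0012, and Rfc5 was 0.22 lower in knockdown 1 than in knockdown 2. Fen1, the flap nuclease of Okazaki fragments, read 7.06 and 7.33 in knockdown 1 and 2, against 7.14 and 7.17 in the controls, on both sides of them. Lig1, the ligase that seals those fragments, read 6.73 and 6.73 against 6.67 and 6.70, with both knockdown arrays alike and above the controls. None of these 5 passed in any of the fits.

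The 3 measured genes for chromatin behind the fork and histone mRNA lay within 0.18 of the control mean in both knockdown arrays. Slbp, which binds the stem-loop of histone mRNA, read 10.01 and 10.08 in knockdown 1 and 2, against 10.16 and 10.10 in the controls. Both knockdown arrays were lower and it passed in knockdown 1 alone (-0.12, adjusted p = 0.0128, limma). A second Slbp probe set was also lower, by 0.24, and another, dim one was higher by 0.10. Chaf1b, of the histone chaperone CAF-1, read 5.76 and 5.85 against 5.88 and 6.001, with a dim second probe set of opposite sign. Uhrf1, which carries DNA methylation through replication, read 7.53 and 7.66 against 7.61 and 7.62, so the knockdown arrays lay on both sides.

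Counted by probe set, the members again gave no passing feature, and most again had lower signal in knockdown 1 than in knockdown 2. Several probe sets can read 1 gene, so these counts are not independent. Of the 63 member probe sets 0 passed, where 0.00222% of all probe sets passed, and the lowest adjusted p was 0.464 (limma). At an unadjusted p of 0.05, 3 were lower and 0 higher, beside 3.83% and 3.42% of all probe sets. These were probe sets of Ccne2, Slbp and Mcm5. In knockdown 1 alone 16 member probe sets passed, where 12.8% of all probe sets did, and in knockdown 2 alone 3, where 3.71% did. Signal was lower in knockdown 1 than in knockdown 2 for 49 of 63, where 52.5% of all probe sets showed that order. Both knockdown arrays lay below both controls for 16 of 63, where 19.9% of all probe sets did so, and above both for 10, where 18.6% did. Of the 20 genes with several probe sets, 10 had 1 or more whose knockdown minus control value was of opposite sign, and 6 had 1 or more that reversed the order of the knockdown arrays, namely Mcm10, Rfc3, Rfc4, Tyms, E2f1 and Uhrf1.

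Other replication genes, a list of 60 of which 50 were measured, also had lower signal in knockdown 1 than in knockdown 2 in most cases. None of the 50 passed in limma, and an unadjusted p of 0.05 was met by 1, which was lower (2.52% of all genes were). Their medians were 0.08 below control in knockdown 1 and 0.01 above it in knockdown 2, and knockdown 1 was below knockdown 2 for 42 of 50, where 53.2% of all genes were. For 4 of the 50 the knockdown arrays were both above the controls and for 13 both below, where 21.2% and 17.1% of all genes were. The lower one was Ung, the uracil glycosylase, at 8.001 and 8.01 in knockdown 1 and 2, against 8.17 and 8.19 in the controls (adjusted p = 0.728). Here the knockdown arrays were alike. The widest gaps were in Dck, the deoxycytidine kinase, Ccna2, the S-phase cyclin A2, and Pold2, a polymerase delta subunit, with knockdown 1 lower by 0.37, 0.34 and 0.33. Without knockdown 2, 10 of the 50 passed as lower and 1 as higher (6.18% and 8.94% of all genes), and without knockdown 1, 0 and 1 (1.37% and 1.91%).

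Among those other replication genes, the smallest p-values with no overlap between groups lay on the lower side at Ung, Dna2, a nuclease and helicase of Okazaki fragments, and Fbxo5, an inhibitor of the anaphase-promoting complex. Dna2 read 6.04 and 6.21 in knockdown 1 and 2, against 6.30 and 6.36 in the controls, and Fbxo5 read 7.01 and 7.24 against 7.33 and 7.31. On the higher side they were Pola2, Rrm2b and Pold3, by 0.12, 0.10 and 0.11. Rrm2b encodes the p53-inducible small reductase subunit, and Pola2 and Pold3 encode accessory polymerase subunits. None of the 6 passed over both knockdown arrays, and Ung, Dna2 and Fbxo5 passed as lower in knockdown 1 alone (adjusted p = 0.0173, 0.0174 and 0.00201, limma).

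Genes of mitosis, the phase that follows, parted in the same direction. All 24 measured of 26 had lower signal in knockdown 1 than in knockdown 2, where 53.2% of all genes did. The median gap was 0.25, and for 16 the controls lay in between, where 13.2% of all genes did so. Their median was 0.17 below control in knockdown 1 and 0.07 above it in knockdown 2. Cdk1, the mitotic kinase, read 9.15 and 9.57 in knockdown 1 and 2, against 9.39 and 9.42 in the controls, and it passed as lower in knockdown 1 alone (adjusted p = 5.94e-05, limma) and as higher in knockdown 2 alone (adjusted p = 0.0120). Knockdown 1 lay below both controls for 21 of the 24, where 39.4% of all genes did so. Knockdown 2 lay above both for 18, where 41.7% did. The spindle kinases Aurka and Ttk had gaps of 0.47 and 0.45. No mitotic gene passed over both arrays in limma. An unadjusted p of 0.05 was met by 0, where 2.52% of all genes met it as lower and 4.15% as higher. This included Ndc80, the kinetochore protein that was higher in both arrays (group difference 0.22). It also included Kif23, the midzone kinesin that was lower in both (group difference -0.07). Kif23 was dim, at signal percentile 18.4, and read 3.55 and 3.64 in knockdown 1 and 2, against 3.68 and 3.66.

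The regulators upstream of S phase were mixed. Cdkn1a, the p21 inhibitor of cyclin-dependent kinases and of PCNA, had signals of 6.21 and 6.89 in knockdown 1 and 2, against 7.39 and 7.39 in the controls. Both knockdown arrays were low, and it passed in each alone (-1.18, adjusted p = 2.93e-09, and -0.50, adjusted p = 0.00017, limma) but not over both (-0.84, SE 0.20, unadjusted p = 0.00521, adjusted p = 0.655). Cdkn1c, the p57 inhibitor, read 4.95 and 5.68 against 5.82 and 5.96. Ccnd1, the cyclin D1 of G1, was high in knockdown 1 only, at 8.51 and 7.92 against 7.98 and 7.96. Knockdown 1 was thus the array with the lowest Tk1, Tyms, Cdc6 and Cdk1 and also the lowest Cdkn1a and Cdkn1c and the highest Ccnd1. Cdkn2a, an inhibitor locus, and Rbl2, a pocket protein that holds E2F, had group differences of 0.16 and 0.14. Both knockdown arrays lay above both controls. Cdkn2a was 0.29 and 0.03 over the control mean in knockdown 1 and 2, and Rbl2 0.20 and 0.09. Of the 14 genes of this list 0 passed over both arrays in limma, where 0% of all genes did. An unadjusted p of 0.05 was met by 2, Cdkn1a and Cdkn1c, both lower, where 2.52% of all genes were. In knockdown 1 alone 3 passed as lower, these 2 and the inhibitor Cdkn2d, and 4 as higher, Ccnd1, the cyclin gene Ccnd2, Cdkn2a and the inhibitor Cdkn2b, where 6.18% and 8.94% of all genes passed. Knockdown 2 lay below both controls for 7 of the 14 and above both for 5, where 31.8% and 41.7% of all genes did so. Cdkn2b, Ccnd2 and Cdkn2d were named after their values were seen.

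**Figure D4:**
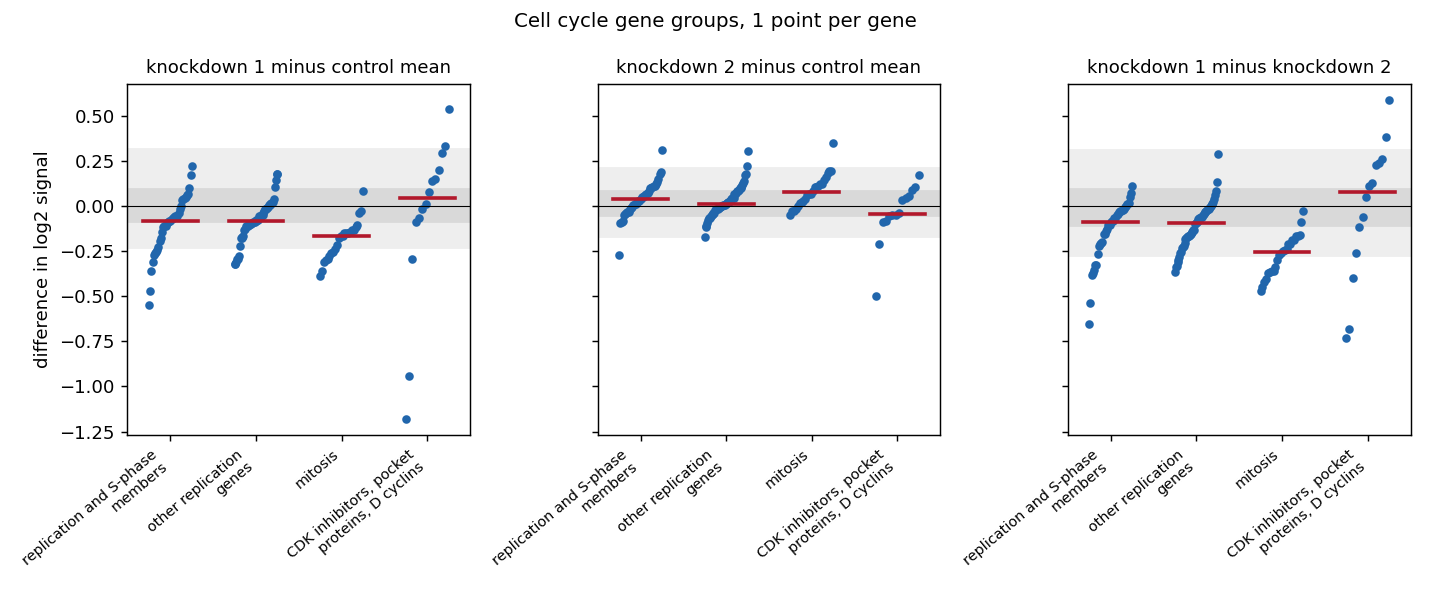
Difference in log2 signal for each gene of 4 cell-cycle lists, in knockdown 1 minus the control mean, knockdown 2 minus the control mean and knockdown 1 minus knockdown 2; red bars are medians, the dark grey band runs from the 25th to the 75th percentile of all genes and the light band from the 5th to the 95th. The medians of the first 3 lists are below 0 in knockdown 1 and above 0 in knockdown 2, and every mitosis gene is below 0 in the comparison of the knockdown arrays.

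Facts of the arrays stood beside these values. Chadl itself, read by 1 probe set, had 4.29 and 4.64 in knockdown 1 and 2, against 4.91 and 4.84 in the controls, lowest in knockdown 1, and did not pass (adjusted p = 0.728, limma). The median signal of every array was 4.24 or 4.25. The 3′ minus 5′ difference of the array's Actb probe sets was 0.80 and 0.82 in the knockdown arrays and 0.81 and 0.83 in the controls, and that of Gapdh was 0.09 and 0.15, against 0.07 and 0.07. The 18S rRNA control probe set nearest the 3′ end read 8.79 and 8.49 in knockdown 1 and 2, against 8.90 and 8.88, lowest in knockdown 2. Markers of cartilage cells were measured for 7 of 7 genes, with Sox9 at 7.50 and 7.49 against 7.52 and 7.47 and Col2a1 at 8.23 and 9.17 against 9.01 and 9.08, and their summed linear signal was 624 and 966, against 893 and 924. Col2a1 was the brightest of the 7 in every array, so it weighs most in that sum. Markers of osteoblasts, measured for 3 of 5, summed to 375 and 942, against 1599 and 1579, lowest in knockdown 1. Ibsp, the brightest of them in the controls, read 7.02 and 9.01 in knockdown 1 and 2, against 10.15 and 10.15. Bglap and Sp7 were 1.13 and 0.81 below the control mean in knockdown 1, and 0.03 and 0.11 below it in knockdown 2. Markers of fat (2 of 4 measured), muscle (4 of 4), leukocytes (5 of 5), endothelium (4 of 4) and epithelium (4 of 4) summed to between 18.3 and 76.1 in every array. The part of these values in the member differences was not tested.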

How the data were processed

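ATDC5 RNA was hybridised to 4 Affymetrix mouse arrays, 2 of the knockdown and 2 of the control group. The files hold log2 signal for each probe set as deposited, and the submitters' processing notes name RMA as the authors' method. RMA makes the arrays' distributions alike, which removes differences in total RNA, and compresses changes of dim probe sets. Its version is not given in the sources used here, and the log base was read from the range of values, 2.17 to 12.7. Groups and replicate numbers come from the titles. Of 45141 probe sets, 104 array controls were left out. Each gene was its brightest probe set with 1 symbol in the platform annotation, which can be old. The group difference was fitted in R 4.3.3 by limma 3.58.1 (lmFit, then eBayes with a trend; 2 residual and 4.45 prior degrees of freedom), two-sided, with Benjamini-Hochberg adjustment over all genes, no further normalization and no filter. The step was run on simulated data, and only its estimates of added changes had to meet a limit. The simulation gave both groups the same spread, unlike these arrays, and did not cover the fits with 1 knockdown array. The number of arrays limits precision. Members and lists were chosen with earlier results of these data known. The named genes were all members, and from each other list the 3 with smallest p and no overlap in each direction and the 3 with the widest knockdown gap. Same-numbered arrays did not deviate together (correlation -0.0041 over all genes), so numbers were not treated as pairs. Promoters are RefSeq, matched by symbol. Alternatives were quantile normalization, median centring, a filter below the 40th percentile, the mean of all probe sets, eBayes without trend, robust eBayes, a replicate block, an adjusted p of 0.1 and leaving out each array.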

Additional observations from a re-analysis of the deposited data

How the results depend on the processing

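The number of calls differed with the knockdown arrays kept in the fit. Leaving either out also took the spread within the knockdown group out of the error, and these cannot be told apart. The number of member genes passing was 0 under every alternative that kept both knockdown arrays, the replicate block included, and 2 without knockdown 1 and 12 without knockdown 2, where 3.28% and 15.1% of all genes passed. When 1 array was left out, that of member probe sets ranged from 0 to 16 and that of the other replication genes from 0 to 11. Without knockdown 2, which gave the 16, 12.8% of all probe sets passed, and without knockdown 1, which gave 3, 3.71% did. The median difference of the members, -0.03, ranged from -0.082 to 0.036, the last without knockdown 1. The fit with the replicate block changed no call (0 member genes, 0 member probe sets). With the mean of all probe sets Dut was 0.060 and Mcm3 -0.032, and with median centring Rfc5 was 0.0024, each of opposite sign to its main value. Leaving out 1 array turned the sign of 17 members, 13 of them without knockdown 1, 3 without knockdown 2 and 5 without a control. Their differences ranged from -0.25 to 0.080 (Ccne1), -0.23 to 0.31 (Cdc6), -0.044 to 0.0028 (Dut), -0.091 to 0.18 (Fen1), -0.36 to 0.011 (Gins1), -0.016 to 0.040 (Mcm3), -0.060 to 0.025 (Mcm4), -0.082 to 0.023 (Mcm5), -0.11 to 0.10 (Mcm7), -0.095 to 0.011 (Prim1), -0.058 to 0.0075 (Rfc4), -0.11 to 0.11 (Rfc5), -0.26 to 0.098 (Rpa2), -0.27 to 0.053 (Rrm2), -0.55 to 0.10 (Tk1), -0.31 to 0.072 (Tyms) and -0.086 to 0.051 (Uhrf1). The cause was not tested. Ccne2 kept its direction in every fit, between -0.47 and -0.27.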
